A study of Mus musculus with 20 samples.

Results

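The Hox genes were followed in mouse embryonic stem (ES) cells and in the cells derived from them. A gene was a member when a probe set of the array named it alone and its symbol was Hox with a cluster letter, a to d, and a number. These were 33 of the 18193 genes measured, with 9 genes of cluster a, 9 of cluster b, 7 of cluster c and 8 of cluster d. Where a gene had several probe sets, as 11 of them did, the 1 with the highest mean over the 20 arrays was used. Hox genes without such a probe set were not analysed here.

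Expression came from 20 Affymetrix arrays, 2 for each of 10 groups, which were 2 genotypes in 5 states. Wild-type (WT) cells were the J1 line of strain 129sv/Jae, and Dnmt3a-/-Dnmt3b-/- (DKO) cells lacked both de novo DNA methyltransferases. The ES, PE, Dex- and Dex+ arrays of each genotype, and replicate 2 of its Flk1(+) arrays, came from 1 clone with a Gata4GR transgene, that is Gata4 joined to the hormone-binding part of the human glucocorticoid receptor under the CAG promoter. Replicate 1 of both Flk1(+) groups came from the parental line without the transgene. ES cells were undifferentiated, and primitive endoderm (PE) was made from them with 100 nM dexamethasone (Dex), the ligand that switches Gata4GR on. Flk1(+) cells were sorted for Flk1 and PDGFRα after 4 days on type IV collagen, and Dex- and Dex+ cells were the sorted cells after 4 more days without or with 100 nM Dex. With 1 clone per genotype, the effect of the genotype and that of the clone cannot be told apart, and DKO cells were plated more densely than WT cells in the mesoderm cultures.

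Hox genes encode homeodomain transcription factors that give cells their position along the axis of the embryo. They lie in 4 clusters, and genes at one end, with low numbers, are switched on early and in anterior parts, while those at the other end follow later and in posterior parts. In ES cells the clusters are held silent by Polycomb proteins, and mesoderm that leaves the primitive streak begins to express the genes of the early end. Hox proteins often bind DNA together with TALE cofactors, the Pbx, Meis and Pknox proteins.

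All values are log2 probe set values made by RMA, so a difference of 1 is a change of 2-fold. The test was limma over all genes with the Benjamini-Hochberg adjustment, and a gene passed at an adjusted p below 0.05 with a change of at least 2-fold. Hox counts at an unadjusted p below 0.05 are a description, since the share of all genes at that threshold was not counted. The targeted genes followed the labels. In every state the WT arrays stood above the DKO arrays in all 5 Dnmt3a probe sets, of which 1 lay at 8.22 to 10.85 in the WT arrays and at 4.85 to 5.59 in the DKO arrays. Of 2 Dnmt3b probe sets, 1 lay at 11.47 to 13.06 in WT ES, PE and Flk1(+) arrays against 6.64 to 8.97 in the DKO ones, and at 6.59 to 7.10 against 4.97 to 6.20 after culture. The other Dnmt3b probe set was lower in DKO by -3.90 in ES cells, but by only -0.37 in Dex- and -0.57 in Dex+ cells. Neither of these 2 changes after culture passed. Kdr, which encodes Flk1, was at 11.75 to 12.30 in the Flk1(+) arrays and at 6.22 to 6.52 in ES cells. Replicate arrays correlated at 0.98 or more, least in WT Flk1(+), where 880 genes differed by 2-fold or more between the parental and the transgenic array, and DKO Flk1(+), with 698, against 20 to 256 genes in the other groups. The parental and the transgenic Flk1(+) arrays also differed in scan day and chip lot, so line, day and lot cannot be told apart between them. In bulk samples, fewer cells of a type and less RNA per cell cannot be told apart.

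Most of the wide changes lay in cluster b. The span of a gene, its highest minus its lowest group mean, had a median of 0.34 in cluster a, 1.46 in cluster b, 0.48 in cluster c and 0.51 in cluster d, and the median was 0.94 over all genes. A span of at least 1 was reached by 9 of the 33 Hox genes (27.3%), 6 of them in cluster b, and by 47.4% of all genes. In 18 comparisons, 8 Hox genes passed the test at least once, which is 24.2% of them, and the share was 37.5% over all genes. These were Hoxb1, Hoxb2, Hoxb4, Hoxb5, Hoxb6, Hoxb9, Hoxc13 and Hoxd1. None of the 9 cluster a genes passed in any of the 18 comparisons. Signals were low, and 24 of the 33 genes, 6 of the 8 that passed among them, lay in the lowest 40% of all genes by mean level.

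**Figure D1:**
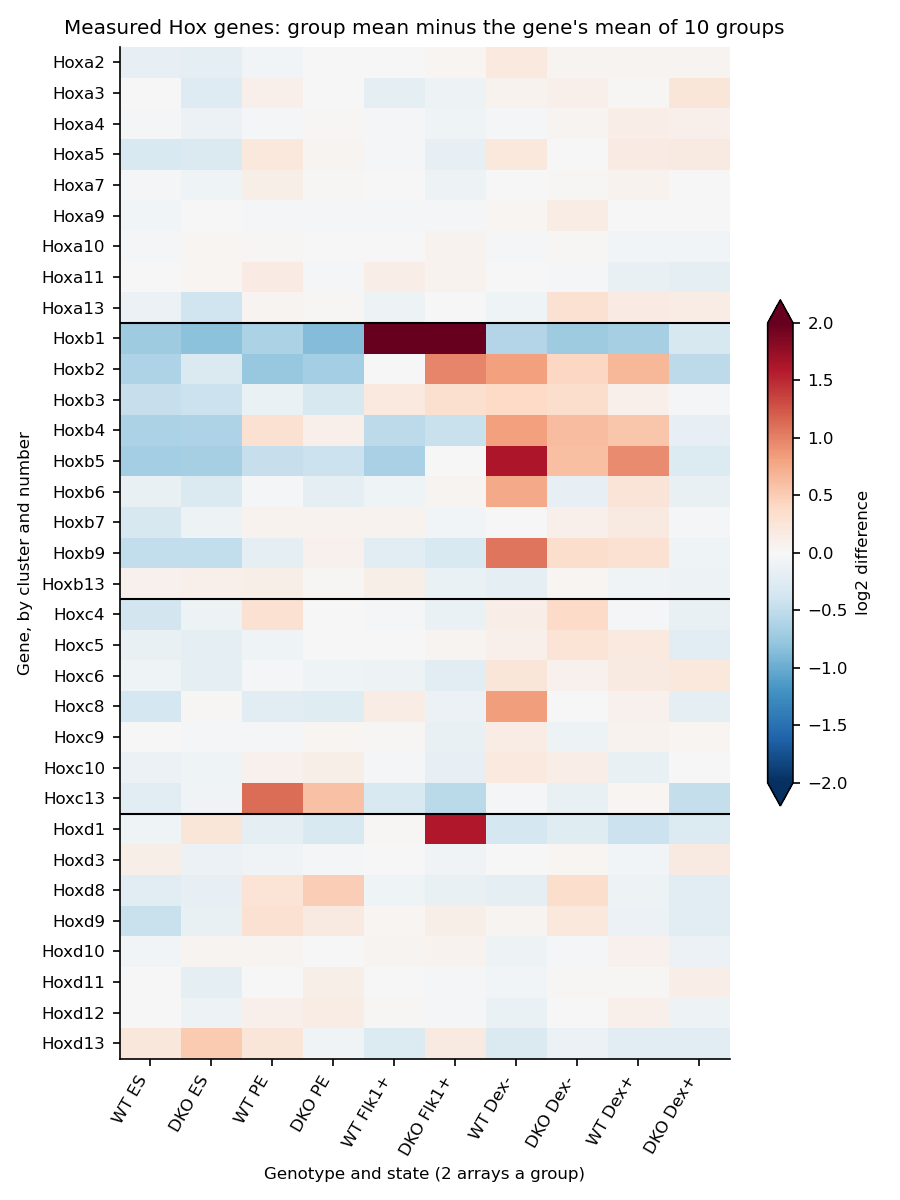
The 33 measured Hox genes (rows, by cluster and number) in the 10 groups (columns, 2 arrays each). Colour is the log2 difference of the group mean from the mean of the gene over its 10 groups, with the colour scale ending at 2. Colour stands in the HoxB rows, in Hoxc13 in PE and in Hoxd1 in DKO Flk1+, while the HoxA rows are close to white.

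Of the 8 genes that passed, the RefSeq promoter table holds Hoxb1, Hoxb4 and Hoxd1, and the 250 bases before their start sites are shown because the sequence context CG is what Dnmt3a and Dnmt3b methylate. Capitals mark each CG. All are on the plus strand of GRCm38.p6, at chr11:96365508-96365757 for Hoxb1, chr11:96318017-96318266 for Hoxb4 and chr2:74762730-74762979 for Hoxd1.
Hoxb1: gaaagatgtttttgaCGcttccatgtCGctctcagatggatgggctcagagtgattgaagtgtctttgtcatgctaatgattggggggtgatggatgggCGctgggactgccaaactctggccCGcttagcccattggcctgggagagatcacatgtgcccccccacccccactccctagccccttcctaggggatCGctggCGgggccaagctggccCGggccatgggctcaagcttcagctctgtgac
Hoxb4: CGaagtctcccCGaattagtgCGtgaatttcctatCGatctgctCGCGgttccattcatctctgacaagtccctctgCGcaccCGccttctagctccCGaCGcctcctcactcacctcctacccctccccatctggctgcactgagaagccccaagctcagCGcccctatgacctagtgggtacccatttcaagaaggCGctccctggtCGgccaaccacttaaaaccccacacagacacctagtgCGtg
Hoxd1: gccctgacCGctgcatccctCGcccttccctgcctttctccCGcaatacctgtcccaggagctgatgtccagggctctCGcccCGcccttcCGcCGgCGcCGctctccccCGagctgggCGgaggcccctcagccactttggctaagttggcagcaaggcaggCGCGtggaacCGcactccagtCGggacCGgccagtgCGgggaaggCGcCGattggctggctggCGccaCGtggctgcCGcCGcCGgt

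The Hoxd1 window has 24 CG, the Hoxb4 window 14 and the Hoxb1 window 7. As many or more CG stand in 12% of all promoter windows of this length for Hoxd1, in 29.4% for Hoxb4 and in 46.3% for Hoxb1. The table has 21 windows for 19 of the 33 genes, with 2 to 35 CG and a median of 13, and the median over all 32841 windows is 6. A Pbx-Hox motif, TGATNNAT read on both strands, is in 7.69% of all windows and in 3 of the 21 Hox windows, those of Hoxa2, Hoxb1 and Hoxd11. In Hoxb1 it reads TGATGGAT and starts 162 bases before the start site. GATA motifs (AGATAA and TGATAA, as well as AGATAG and TGATAG, both strands) are in 26.5% of all windows and in 5 of the 21 Hox windows. These are the windows of Hoxa7, Hoxa9, Hoxd8, Hoxd10 and Hoxd12, and none of these genes passed the test. Only 3 of the 8 genes that passed have a window, so motif and passing cannot be related here. These matches describe the letters of the window only.

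From ES to Flk1(+) mesoderm, the first gene of the HoxB cluster rose in both genotypes. Hoxb1, which is active in the primitive streak and later gives a hindbrain segment its identity, read 4.05 and 4.29 in WT ES arrays and 8.18 and 5.92 in WT Flk1(+) arrays. In DKO it read 4.17 and 3.93 in ES cells and 8.35 and 7.68 in Flk1(+) cells. The 4 Flk1(+) arrays stood above all 16 others, and the WT array of the transgenic clone stood apart from the other 3. The change was 2.88 (SE 0.46, limma, adjusted p = 0.000257) in WT and 3.96 (SE 0.46, adjusted p = 1.83e-05) in DKO. Without the parental-line arrays these changes were 1.76 and 3.63, and with the compared groups alone in the fit the WT change did not pass (adjusted p = 0.055).

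In WT, Hoxb1 was the only 1 of 33 Hox genes to pass at this step, where 6.15% of all genes were higher and 6.3% lower. The other 32 lay between -0.49 and 0.65. In DKO, 3 Hox genes were higher and none lower, where 4.56% of all genes were higher and 5.62% lower. They belonged to the early end of clusters b and d.

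Hoxb2, a hindbrain gene, read 5.89 and 5.62 in DKO ES cells and 7.43 and 6.64 in DKO Flk1(+) cells. Its WT values were 5.32 and 5.54 in ES cells and 6.32 and 5.79 in Flk1(+) cells. The DKO arrays of the states did not overlap, and the change was 1.28 (SE 0.23, limma, adjusted p = 0.00102), while the WT change was 0.63 with an adjusted p of 0.0632. Without the parental-line arrays the DKO change was 0.88 and did not pass.

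Hoxd1, known for its role in pain-sensing neurons, read 4.43 and 4.44 in DKO ES cells and 6.42 and 5.17 in DKO Flk1(+) cells. In WT it was 4.27 and 3.93 in ES cells and 4.34 and 4.07 in Flk1(+) cells. Both DKO Flk1(+) arrays exceeded the other 18 arrays, the parental array by more than the transgenic one. The DKO change was 1.36 (SE 0.28, limma, adjusted p = 0.00238) and 0.73 without the parental-line array, which did not pass. Hoxb3, next to Hoxb2 in the cluster, changed by less than 2-fold at an adjusted p below 0.05, by 0.65 in WT and 0.76 in DKO.

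A test of whether the step differed between the genotypes found no Hox gene, where 0.203% of all genes were higher and 0.588% lower in DKO minus WT. At an unadjusted p below 0.05, limma gave 2 of the 33, Hoxd1 (1.25, SE 0.39, adjusted p = 0.219) and Hoxc8 (-0.64, SE 0.26, adjusted p = 0.403). The Hoxd1 difference passed with chip lot as a block (adjusted p = 0.0448). Hoxb1 differed by 1.08 (SE 0.65, adjusted p = 0.644). The Hoxb1 difference was 1.87 without the parental-line arrays, with 1 array in each Flk1(+) group, so the spread of Flk1(+) replicates was not measured.

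**Figure D2:**
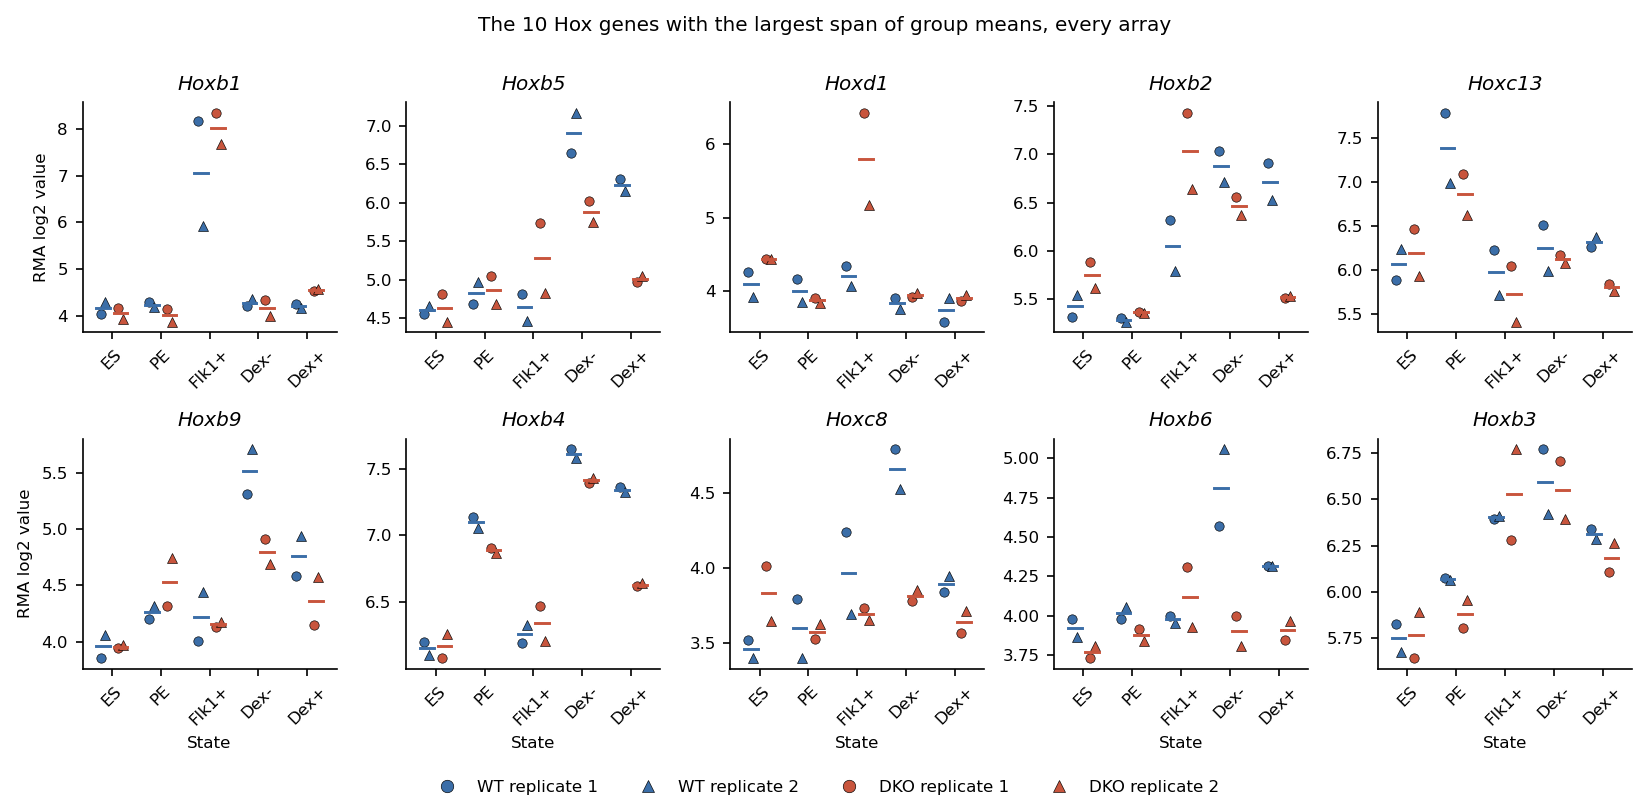
RMA log2 values of the 10 Hox genes with the largest span, with 1 symbol per array, the mean of 2 arrays as a bar, WT in blue and DKO in red. Replicate 1 of the Flk1+ groups is the parental line. Hoxb1 stands high in the 4 Flk1+ arrays, and Hoxb5, Hoxb6, Hoxb9 and Hoxc8 stand highest in the 2 WT Dex- arrays.

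When the sorted cells were cultured for 4 days without Dex, Hoxb1 fell and Hoxb4 rose in both genotypes, and Hoxb5 and Hoxb9 rose in WT. In WT, 3 Hox genes were higher and 1 lower, where 7.49% of all genes were higher and 7.79% lower. In DKO, 1 was higher and 2 were lower, where 8.23% of all genes were higher and 8.39% lower. Cluster b had a median change of 0.82 in WT and 0.15 in DKO, against 0.01 and 0.03 over all genes.

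Hoxb1 read 4.21 and 4.36 in WT Dex- cells and 4.33 and 4.00 in DKO Dex- cells, close to the ES arrays. It fell by 2.77 in WT (SE 0.46, limma, adjusted p = 0.000288) and by 3.85 in DKO (SE 0.46, adjusted p = 1.52e-05). Without 1 or the other WT Flk1(+) array the WT change was -1.64 or -3.90, and with the compared groups alone it did not pass (adjusted p = 0.0569). Hoxd1 returned in the same way in DKO, to 3.92 and 3.98, and fell by 1.84 (SE 0.28, adjusted p = 0.000118). In WT, Hoxd1 stood at 3.92 and 3.76 and its change was -0.37.

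Hoxb4, which can expand blood stem cells, rose in both genotypes. It read 6.20 and 6.33 in WT Flk1(+) and 7.65 and 7.58 in WT Dex- cells, and 6.47 and 6.21 in DKO Flk1(+) and 7.39 and 7.43 in DKO Dex- cells. The states did not overlap in either genotype. The change was 1.35 in WT (SE 0.12, limma, adjusted p = 1.02e-06) and 1.07 in DKO (SE 0.12, adjusted p = 9.35e-06). With the mean of its probe sets in place of the brightest, the changes were 0.79 and 0.605, short of 2-fold, and the DKO change was 0.94 without replicate 2 of DKO Flk1(+).

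Hoxb5, a gene of trunk mesoderm and of the enteric nervous system, had the largest rise of the Hox genes in WT. It read 4.81 and 4.47 in WT Flk1(+) cells and 6.65 and 7.17 in WT Dex- cells, a change of 2.27 (SE 0.26, limma, adjusted p = 9.83e-06). In DKO it went from 5.74 and 4.83 to 6.02 and 5.75, a change of 0.60 with an adjusted p of 0.0953. The DKO Dex- arrays thus lay below both WT Dex- arrays, and the DKO parental array was already high in Flk1(+) cells.

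Hoxb9, a posterior gene that helps to pattern the ribs, read 4.00 and 4.44 in WT Flk1(+) and 5.31 and 5.71 in WT Dex- cells. It rose by 1.29 (SE 0.21, limma, adjusted p = 0.000205), and its DKO values of 4.13 and 4.18 against 4.91 and 4.69 gave 0.65 (adjusted p = 0.0253), short of 2-fold. A further 3 genes, Hoxb2, Hoxb6 and Hoxc8, had an adjusted p below 0.05 in WT with changes of 0.82, 0.83 and 0.69.

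Hoxb6, which marks posterior lateral plate mesoderm, read 4.00 and 3.95 in WT Flk1(+) cells and 4.57 and 5.06 in WT Dex- cells. In DKO it was 4.31 and 3.93 before and 4.00 and 3.81 after culture. Hoxc8, a thoracic gene, read 4.24 and 3.70 in WT Flk1(+) and 4.79 and 4.53 in WT Dex-, and 3.73 and 3.66 against 3.78 and 3.85 in DKO. For both genes the 2 WT Dex- arrays were the highest of all 20.

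The difference of this culture step between the genotypes was tested directly. It passed for 3 Hox genes, all lower in DKO, where 1.82% of all genes were higher and 1.08% lower. Hoxb5 differed by -1.67 (SE 0.37, limma, adjusted p = 0.0198), Hoxb2 by -1.39 (SE 0.33, adjusted p = 0.0327) and Hoxb6 by -1.05 (SE 0.23, adjusted p = 0.0183). Hoxd1 differed by -1.48 with an adjusted p of 0.0561, and passed with scan day (adjusted p = 0.0327) or chip lot (adjusted p = 0.00823) as a block and with arrays centred on their medians (adjusted p = 0.0319). With the replicate number as a block, the 3 differences did not pass (adjusted p = 0.196 for Hoxb5, 0.101 for Hoxb2 and 0.283 for Hoxb6). Each of the 3 calls also rests on single arrays. None passed without replicate 1 of DKO Flk1(+) or without replicate 2 of DKO Dex-, where the differences were -0.99 and -1.30 for Hoxb2, -1.22 and -1.53 for Hoxb5 and -0.86 and -0.95 for Hoxb6. Hoxb6 did not pass without the parental-line arrays either (-0.88), and Hoxb2 and Hoxb5 did (-1.26 and -1.39).

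**Figure D3:**
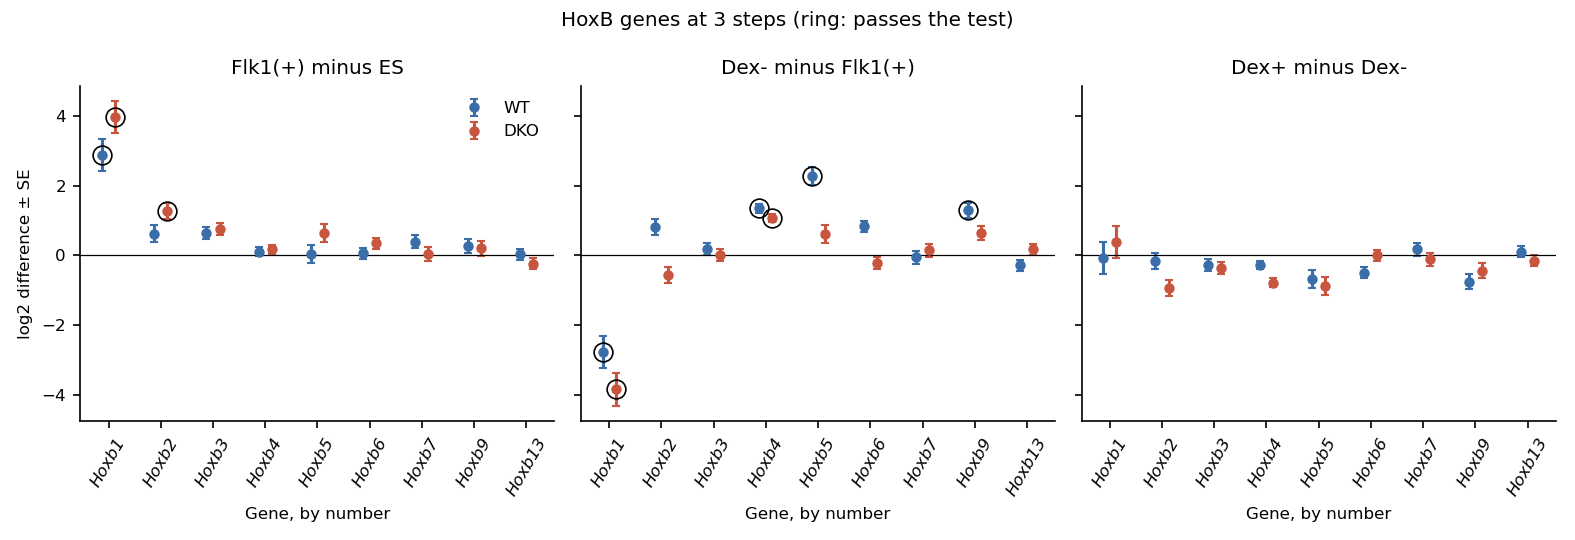
Log2 difference ± SE of the 9 measured HoxB genes, in the order of their numbers, for Flk1(+) minus ES, Dex- minus Flk1(+) and Dex+ minus Dex-, with 2 arrays a group, WT in blue, DKO in red and a ring where the gene passed. Hoxb1 rises and then falls, the WT rise at the second step peaks at Hoxb5 (2.27), and the third step has no ring.

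Adding Dex during the culture, which switches Gata4GR on, changed no Hox gene by the test, in either genotype. No array was of Dex-treated cells without the transgene, so other effects of Dex cannot be told apart from those of Gata4GR. In WT, 1.15% of all genes were higher and 0.451% lower with Dex. In DKO, 4.64% were higher and 4.99% lower. At an unadjusted p below 0.05, limma gave 6 Hox genes in WT and 7 in DKO, and all of these had negative changes. How many of all genes had such an unadjusted p, and in which direction, was not counted. The adjusted p was below 0.05 for 1 of 33 genes in WT and 4 in DKO, all with changes of less than 2-fold, where 2.59% and 18.9% of all genes had such a p. These shares are near or above those of the Hox genes, so the values below are a description.

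In WT that gene was Hoxc8, at 4.79 and 4.53 without and 3.84 and 3.95 with Dex (-0.76, adjusted p = 0.042, limma). In DKO, Hoxb2 read 6.55 and 6.37 without and 5.51 and 5.53 with Dex (-0.94, SE 0.23, adjusted p = 0.00998). Hoxb4 read 7.39 and 7.43 without and 6.62 and 6.64 with Dex (-0.78, SE 0.12, adjusted p = 3e-04). The arrays of Hoxb2 and Hoxb4 did not overlap between the DKO states. Hoxb5 read 6.02 and 5.75 without and 4.97 and 5.05 with Dex in DKO (-0.87, SE 0.26, adjusted p = 0.0274). In WT, Dex+ values were 6.91 and 6.52 for Hoxb2, 7.36 and 7.32 for Hoxb4 and 6.31 and 6.15 for Hoxb5.

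The Dex response did not pass as different between the genotypes for any Hox gene, where 2.73% of all genes were higher and 3.13% lower in DKO minus WT. At an unadjusted p below 0.05, limma gave 5 of 33. The widest was Hoxb2, at -0.78 (SE 0.33, adjusted p = 0.209).

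Primitive endoderm was compared with the ES cells it was made from. In WT, 1 Hox gene was higher, where 7.68% of all genes were higher and 6.55% lower. It was Hoxc13, a gene of hair and nail keratins, which read 5.88 and 6.24 in ES cells and 7.79 and 6.99 in PE (1.33, SE 0.29, limma, adjusted p = 0.00284). In DKO, none passed, where 8.13% of all genes were higher and 8.18% lower, and at an unadjusted p below 0.05 limma gave 7 of 33. DKO Hoxc13 read 6.46 and 5.93 in ES cells and 7.09 and 6.63 in PE, a change of 0.66 between the means. Both PE arrays lay above both ES arrays, by a narrow margin. Without replicate 1 of WT PE the WT change was 0.93 and did not pass. With chip lot as a block, 4 Hox genes passed in WT, Hoxc13, Hoxb1 (1.53), Hoxb4 (1.03) and Hoxd9 (1.06), and 3 in DKO, Hoxb1 (1.42), Hoxc13 (1.19) and Hoxd13 (-1.33). All PE arrays were of 1 lot that no ES array had. That lot met a lot of the ES arrays within a group only in Flk1(+), between the transgenic and the parental array. The lot term therefore rests on the gap between those arrays. Hoxb1 itself read 4.30 and 4.18 in WT PE against 4.05 and 4.29 in WT ES cells, and 4.15 and 3.88 in DKO PE.

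Hoxb4 was the next in WT PE, at 7.14 and 7.06 against 6.20 and 6.10 in ES cells, a change of 0.95, short of 2-fold without the block. In DKO PE it read 6.90 and 6.87, against 6.08 and 6.26 in ES cells, a change of 0.72.

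Dex+ cells were also compared with PE, since both had active Gata4GR but came from different starting cells. In WT, 2 Hox genes were higher and 1 lower in Dex+, where 6.13% of all genes were higher and 6.2% lower. Hoxb2 read 5.31 and 5.27 in WT PE (1.42, SE 0.23, limma, adjusted p = 0.000329) and Hoxb5 4.68 and 4.96 (1.41, SE 0.26, adjusted p = 0.000828). Hoxc13 was lower in Dex+ in both genotypes, by -1.07 (SE 0.29, adjusted p = 0.0141) in WT and by -1.06 (SE 0.29, adjusted p = 0.0384) in DKO.

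In DKO, Hoxc13 was the only 1 to pass, where 2.73% of all genes were higher and 1.74% lower. DKO Dex+ read 5.51 and 5.53 for Hoxb2 and 4.97 and 5.05 for Hoxb5, against 5.37 and 5.36 and 5.05 and 4.68 in DKO PE. On the scan day that Dex+ arrays shared with 1 PE array, the Hoxc13 difference was -0.68 in WT and -0.82 in DKO, and it did not pass with the day as a block.

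WT and DKO cells of the same state differed at few Hox genes. In ES cells none passed, where 1.12% of all genes were higher and 0.269% lower in DKO. In PE none passed either, where 1.13% were higher and 0.824% lower. In both states limma gave 0 of 33 Hox genes at an unadjusted p below 0.05, and the differences ran from -0.29 to 0.37 in ES cells and from -0.53 to 0.27 in PE.

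In Flk1(+) cells, 1 Hox gene was higher in DKO, where 0.396% of all genes were higher and 0.302% lower. It was Hoxd1, by 1.59 (SE 0.28, limma, adjusted p = 0.0118), by 2.08 between the parental arrays and by 1.10 between the transgenic ones. With the replicate number as a block it did not pass (adjusted p = 0.371). Without DKO replicate 1 it was 0.96 and did not pass. Hoxb2 differed by 0.98 (adjusted p = 0.0626). Hoxb1 differed by 0.96 (adjusted p = 0.396), and by 1.76 between the transgenic arrays alone. That is 1 array against 1, so the spread of Flk1(+) replicates was not measured. The lateral plate mesoderm markers had a mean of 8.92 and 8.09 in WT and 9.73 and 9.12 in DKO Flk1(+) arrays, with 2 of 8, Hand2 and Isl1, higher in DKO, and their part in the Hox difference was not tested.

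After culture without Dex, 1 Hox gene was lower in DKO, where 3.51% of all genes were higher and 2.34% lower. Hoxb5 was lower by -1.02 (SE 0.26, limma, adjusted p = 0.0165), with 6.65 and 7.17 in WT and 6.02 and 5.75 in DKO. The call was lost without replicate 2 of either group, at -0.76 and -0.89, and within the 2 scan days the difference was -0.62 and -1.43. Hoxb6 (-0.91), Hoxc8 (-0.84) and Hoxb9 (-0.72) had an adjusted p below 0.05 with changes under 2-fold. Fibroblast markers had a mean of 10.20 and 10.38 in WT and 9.05 and 9.38 in DKO, with 3 of 7 lower in DKO, Postn, Lum and Dcn, and their part was not tested.

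After culture with Dex, 2 Hox genes were lower in DKO, where 4.82% of all genes were higher and 4.83% lower. Hoxb2 was lower by -1.19 (SE 0.23, limma, adjusted p = 0.00204) and Hoxb5 by -1.22 (SE 0.26, adjusted p = 0.00349), with no overlap between the genotypes. All 4 arrays were scanned on 1 day. Hoxb4 differed by -0.71, short of 2-fold with an adjusted p below 0.05, and no HoxB gene besides Hoxb2 and Hoxb5 passed. Without replicate 1 of WT the Hoxb2 difference fell just short of 2-fold and did not pass.

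The same DKO Dex+ cells had other marker levels too. Primitive endoderm markers had a mean of 9.33 and 9.67 in WT and 11.54 and 11.64 in DKO Dex+, with 6 of 8 higher in DKO. Fibroblast markers had 9.54 and 9.61 against 6.18 and 6.31, with 5 of 7 lower, and mural cell markers 10.15 and 10.18 against 8.02 and 8.40, with 4 of 6 lower. The part of these in the Hox differences was not tested.

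**Figure D4:**
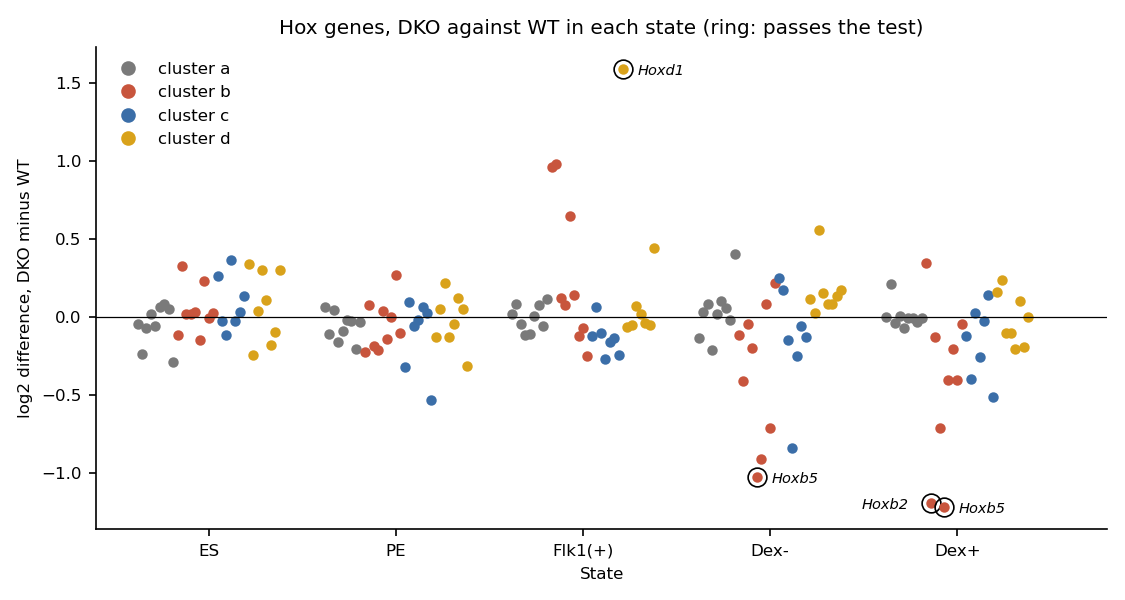
Log2 difference, DKO minus WT, of the 33 Hox genes in the 5 states, with 1 point per gene coloured by cluster and a ring where it passed (2 arrays per group). Points lie between -0.53 and 0.37 in ES cells and PE, Hoxd1 stands at 1.59 in Flk1(+), Hoxb5 stands lowest in Dex- (-1.02), and Hoxb5 and Hoxb2 stand lowest in Dex+ (-1.22 and -1.19).

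The other 25 genes of the family passed in no comparison. Spans ran from 0.13 (Hoxa10) to 0.71 (Hoxa13) in cluster a, and cluster a changes ran from -0.31 to 0.52 over the 10 comparisons of states. In cluster c, Hoxc4, Hoxc5, Hoxc6, Hoxc9 and Hoxc10 passed in no comparison. In cluster d, neither did Hoxd3 nor the limb and posterior genes Hoxd8 to Hoxd13 that were measured. Hoxb3, Hoxb7, Hoxb13 and Hoxc8 did not pass either. By number, genes 1 to 3 had 7 members, genes 4 to 8 had 12 and genes 9 to 13 had 14. At the DKO Flk1(+) step, 3 of 7, 0 of 12 and 0 of 14 passed, and at the WT culture step 1, 2 and 1 did.

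Other probe sets of the same genes were read too. A second Hoxb3 probe set read 4.48 and 4.39 in DKO ES cells and 5.90 and 6.005 in DKO Flk1(+) cells, and passed (1.52, SE 0.25, limma, adjusted p = 0.000872). Its WT values were 4.72 and 4.33 against 5.54 and 4.54, where the transgenic array stayed with the ES cells. A second Hoxa10 probe set read 3.63 and 3.14 in WT ES cells and 4.70 and 4.31 in WT PE and passed (1.12, SE 0.17, adjusted p = 0.000284), while the brighter one read 4.25 and 4.22 against 4.20 and 4.39. A second Hoxb4 probe set stayed between 5.14 and 5.91 in all arrays. The probe sets used for Hoxa5 and Hoxd8 end in _x_at and _s_at, names that the maker gives where probes can also match other transcripts.

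The Hoxb1 pattern over the 10 group means had close likenesses outside the clusters. Clone and locus names were left out of the ranking. The 8 remaining genes with the highest Pearson correlation were Efnb3 (0.995), Mesp1 (0.991), Cyp4f15 (0.989), Lhx1os (0.989), Tnfrsf13c (0.984), Tbx6 (0.981), Wnt5b (0.98) and Fosb (0.978). The 10 points share arrays and normalization, and the 2 Flk1(+) points carry most of the spread. Mesp1 and Tbx6 are genes of early mesoderm and also stand in the list of nascent mesoderm markers. That list had 6 of 6 genes higher in WT Flk1(+) than in ES cells and 6 of 6 lower after culture, with a mean of 9.76 and 10.20 in WT and 9.68 and 9.67 in DKO Flk1(+) arrays. Unlike Hoxb1, the mean of this list was not lower in the WT transgenic array than in the parental one. The lateral plate mesoderm list was lower there (8.09 against 8.92), as was the paraxial and intermediate mesoderm list (5.65 against 5.80). All other cell type marker lists were also lower in that array. The gap was widest in the fibroblast list (5.48 against 7.06), followed by the primitive endoderm list (7.20 against 8.11). The part of cell composition in the Hoxb1 values was not tested.

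Of 8 measured TALE cofactor genes, 3 were higher and none lower in Flk1(+) than in ES cells in WT, and 4 were higher in DKO. Over all genes, 6.15% were higher in WT and 4.56% in DKO. The median change of the list was 0.76 in WT and 1.34 in DKO, against 0.03 and 0.00 over all genes. Meis2 rose by 3.48 in WT and 3.56 in DKO (limma, adjusted p = 2.27e-06 and 2.43e-06). Pbx3 rose by 2.63 and 2.30, and Pknox2 by 2.53 and 1.97, in WT and DKO.

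Meis1 was high in PE as well. It read 6.14 and 5.35 in WT ES cells, 9.23 and 8.96 in WT PE and 6.84 and 5.12 in WT Flk1(+). In DKO Flk1(+) cells it read 8.07 and 8.09, higher than in WT by 2.10 (adjusted p = 0.0185, limma), and in DKO Dex- cells 9.18 and 9.26 against 6.81 and 6.96 in WT (2.34, adjusted p = 0.00107). With Dex, WT reached 9.08 and 8.66 and DKO 9.71 and 9.28.

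Meis2 also separated the genotypes with Dex. It read 9.77 and 9.49 in DKO Dex- and 7.36 and 7.68 in DKO Dex+ cells, lower by -2.11 (SE 0.34, adjusted p = 0.000388, limma). WT read 8.74 and 9.21 without and 8.90 and 8.86 with Dex. The difference of the Dex response between the genotypes passed for Meis2, at -2.01 (SE 0.48, adjusted p = 0.0184), 1 of the 8 cofactors.

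**Figure D5:**
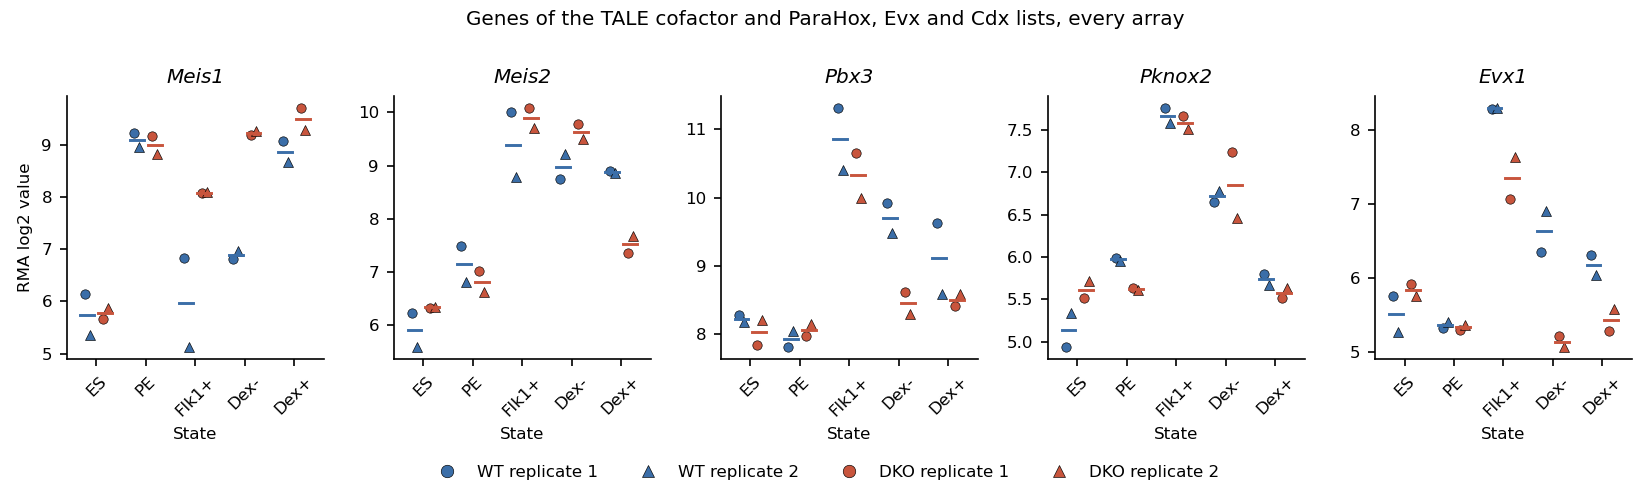
RMA log2 values of Meis1, Meis2, Pbx3, Pknox2 and Evx1 in every array, WT in blue and DKO in red, with the mean of 2 arrays as a bar. Meis1 is higher in DKO than in WT in Flk1+ and Dex-, Meis2 is lower in DKO Dex+ than in DKO Dex-, and Evx1 peaks in Flk1+ cells.

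Of the 8 ParaHox, Evx and Cdx genes, Evx1, a streak gene beside the HoxA cluster, was the only 1 to pass, at 8.29 and 8.30 in WT Flk1(+) and 7.07 and 7.63 in DKO Flk1(+) arrays. It rose from ES cells by 2.78 (SE 0.22) in WT and 1.51 (SE 0.22) in DKO (limma, adjusted p = 2.22e-07 and 0.000121). It fell again in culture (-1.66 in WT and -2.20 in DKO), and was lower in DKO than in WT Dex- cells by -1.49 (adjusted p = 0.000308). Cdx1, Cdx2 and Cdx4, which switch on middle Hox genes in the embryo, passed in no comparison and ranged from 3.24 to 5.77.

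Some Polycomb genes, which encode the proteins that silence Hox clusters, passed at most steps. Over all genes, 6.15% were higher and 6.3% lower from ES to Flk1(+) in WT, and 4.56% and 5.62% in DKO. In culture these shares were 7.49% and 7.79% in WT, and 8.23% and 8.39% in DKO. Of 29 measured, 4 were higher and 6 lower in WT Flk1(+) than in ES cells, and 2 and 6 in DKO, with Cbx7 (-2.87 and -2.69), Phc1 (-1.96 and -1.87) and Yaf2 (2.72 and 1.53) among the widest. At the culture step, 1 was higher and 6 lower in WT, and 2 and 5 in DKO. There Phc3 rose (1.65 in WT and 2.16 in DKO) and Cbx2 fell (-1.67 and -2.02). Jarid2 had the widest change of the list in WT (-2.45). In DKO it read 11.21 and 10.31 in Flk1(+) and 10.06 and 10.10 in Dex- cells, a change short of 2-fold. With Dex, none passed in WT and 1 was lower in DKO, where 4.99% of all genes were lower. Genes of the list also passed from ES cells to PE, where 7.68% of all genes were higher and 6.55% lower in WT. In DKO these shares were 8.13% and 8.18%. Phc1 (-2.53 in WT and -3.02 in DKO) and Jarid2 (-2.28 and -2.81) fell there. Pcgf5 rose in both genotypes, in WT from 9.35 and 9.14 to 12.66 and 12.44. The Polycomb changes were thus not limited to the mesoderm steps. Of the Hox genes, 1 passed from ES to PE in WT and none in DKO.

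Between the genotypes, 3 Polycomb genes were higher in DKO Dex- and 4 in DKO Dex+ than in WT. Over all genes, 3.51% and 4.82% were higher. Cbx7 was higher by 2.48 in Dex- (limma, adjusted p = 4.7e-05) and by 1.27 in Dex+ (adjusted p = 0.00607). Jarid2 was higher by 1.02 in Dex- and Ezh1 by 1.07. The median difference of the list was 0.00 in Dex- and 0.04 in Dex+, near that of all genes (-0.03 and 0.00).

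Of 14 trithorax and H3K27 demethylase genes, which oppose Polycomb, 1 was higher and 2 lower in WT Flk1(+) than in ES cells and 1 and 1 in DKO. Kdm6b, a demethylase of H3K27, rose by 1.13 and 1.46, and Dpy30 fell (-1.33 and -1.43). In culture, 1 was lower in WT and 2 were lower in DKO. The shares over all genes at these steps are those given for the Polycomb genes. Of 5 other regulators of the clusters, Ctcf and Gmnn, which encode an insulator protein and geminin, fell in culture, Ctcf (-1.62 in WT and -1.33 in DKO) and Gmnn (-2.15 and -1.73) alike in direction. Gmnn was also higher in DKO than in WT Dex+ cells by 1.48 (adjusted p = 7.85e-05, limma).

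The 5 nearest measured genes on each side of each cluster were read as neighbours, 40 genes in all. In WT, 2 were higher and 2 lower from ES to Flk1(+), and 2 and 3 in culture. In DKO the counts were 2 and 4, then 1 and 3. Over all genes, 6.15% were higher and 6.3% lower, then 7.49% and 7.79%, in WT. In DKO the shares were 4.56% and 5.62%, then 8.23% and 8.39%. The counts of neighbours are a description. Evx1 and its antisense RNA Evx1os, past the HoxA end, rose at the first step by 2.78 and 2.87 in WT. Whether the probes of this pair overlap was not tested. Calcoco2, near HoxB, fell at this step (-2.86 in WT and -4.66 in DKO), while Hoxb1 rose. Jazf1, near HoxA, rose in culture by 3.58 in WT and 1.81 in DKO, where the difference of the step passed (-1.77, SE 0.36, adjusted p = 0.0125, limma), while no HoxA gene passed.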

How the data were processed

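RNA was amplified with a 2-cycle protocol and hybridised to Affymetrix MOE430v2 arrays, and the authors deposited RMA values, which are background-corrected, quantile-normalized probe set signals on a log2 scale. Further versions of their tools are not given in the sources used here. Of 45101 probe sets, 34945 named 1 gene in the platform annotation, and the brightest per gene gave 18193 genes. All 20 arrays entered 1 fit in limma 3.58.1 (R 4.3.3) with a mean per group, 10 residual and 4.54 prior degrees of freedom, and the Benjamini-Hochberg adjustment over all genes. SAM, which the methods name, was not available, so limma took its place. The precision is limited by 2 arrays per group, which came from independent experiments. RMA pulls low signals together, so differences between low values may be understated.

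The members and lists were chosen with earlier results of these data known. Members that passed are given with SE and adjusted p, and the 10 with the largest span in every array. From other lists, at most 3 genes per comparison were named by size of change, besides Cdx1, Cdx2, Cdx4, Mesp1 and Tbx6. The 8 genes most like the widest-ranging Hox gene were named by correlation, with clone and locus names left out. Alternatives were another probe set choice, a filter on low values, median centring, another prior, the compared groups alone, blocks for scan day, chip lot and replicate number, and leaving out arrays. The script was tested on simulated data.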

Additional observations from a re-analysis of the deposited data

Results flagged for a closer look

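The change from Flk1(+) to Dex- cells differed between the genotypes for 3 Hox genes by a direct test of the difference in limma. The difference, DKO minus WT, was -1.39 for Hoxb2 (adjusted p = 0.0327), -1.67 for Hoxb5 (adjusted p = 0.0198) and -1.05 for Hoxb6 (adjusted p = 0.0183). Each was lost in 6 or 7 of 17 other settings, and none changed its sign.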

How the results depend on the processing

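The 23 changes of single Hox genes that passed were recomputed in 12 to 17 other settings each, which gave 308 values. They kept direction and side of the threshold in 263, no longer passed in 45 and reversed in 0. Counts of Hox genes that passed moved as follows. Without the lowest 40% of genes, which leaves 9 Hox genes, the count was 0 for Flk1(+) against ES in WT and in DKO, 1 for Dex- against Flk1(+) in WT and in DKO, 1 for Dex+ against PE in WT, and 0 for DKO against WT in Flk1(+), Dex- and Dex+ and for the difference of the culture step. With the compared groups alone it was 0 for Flk1(+) against ES in WT, for DKO against WT in Flk1(+) and for the culture step difference. With chip lot as a block it was 4 for PE against ES in WT, 3 in DKO, 2 for Flk1(+) against ES in WT and 1 for the difference of that step. For PE against ES, that block rests on the gap between the parental and the transgenic Flk1(+) arrays. With scan day as a block it was 0 for Dex+ against PE in DKO, and with any probe set of a gene, chosen after seeing the data, it was 0 there and 2 for PE against ES in WT. Without the parental-line arrays, 1 array was left in each Flk1(+) group. There Hoxb1 differed, DKO minus WT, by 1.76 in Flk1(+) cells and by 1.87 in the Flk1(+) step.

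Leaving out 1 array gave 0 to 1 for PE against ES in WT and in DKO, 0 to 1 for Dex+ against Dex- in DKO, 0 to 0 for Dex+ against PE in DKO, 0 to 3, 0 to 2 and 1 to 2 for DKO against WT in Flk1(+), Dex- and Dex+, 0 to 1 for the difference of the Flk1(+) step and 0 to 4 for that of the culture step. A group left with 1 array was assumed to vary like the others.

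Same-numbered WT and DKO arrays shared scan day and chip lot, and their deviations correlated at 0.18 to 0.36 over 2 pairs in each state, but the labels do not say that a number marks a pair. The replicate block gave 0 for DKO against WT in Flk1(+) and 0 for the culture step difference, where 1 and 3 had passed. Scan day cannot be told apart from state for the comparisons with ES cells, and a random block (correlation 0.091), added after seeing the data, was used there. The cause of these changes was not tested.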
